A study of Mus musculus with 148 samples.

Results

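Mon_Ace cells were a monocyte subpopulation of the lung and tumor tissue in a mouse model of breast cancer metastasis, named in the deposited cell annotation after the gene Ace. They were taken as every sorted well carrying that annotation, which gave 1375 of 24020 annotated cells and 1375 of 6308 monocytes. The other monocytes carried the annotations Mon_Fn1 (3053 cells), Mon_Thbs1 (1109 cells) and Mon_MHC-II (771 cells). All mice were C57BL/6 animals carrying photoactivatable GFP (PA-GFP), a fluorescent protein that is switched on by light in a chosen region. Apart from the uninjected controls, they had received EO771-tdTomato cells, a red-fluorescent mouse breast cancer line, in the mammary gland as females of 8 weeks. EO771 is a single transplanted line, so that all tumor-bearing groups share 1 tumor genotype.

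The samples, each 1 mouse and tissue status, numbered 63 from 27 mice. Normal lungs came from 3 uninjected PA-GFP mice. Pre-MET lungs came from 3 mice still bearing the primary tumor, and Primary denotes the mammary tumors of 4 mice, 3 of which also gave Pre-MET lungs. The remaining injected mice had their tumor resected 3 weeks after injection. Of these, 6 had no detected lung lesion (Relapse-free). Lesion-bearing mice gave lung sections with a lesion (MET, 13 mice), lung without one (Distal normal tissue, 14 mice), and photoactivated lesion centers (MET Core, 13 mice) or borders (MET Invasive margin, 7 mice). The photoactivated region is labelled NON-MET on the margin plates of mouse 17 and ADJ on the other margin plates. Cells were sorted as CD31-CD45+, except that photoactivated core and margin cells were sorted as CD31-GFP+ (in the core of mouse 17 as CD31-GFP+CD45+), with dead cells and doublets gated out. Relapse-free mice 6 and 7 mixed gates, with 7 plates of CD31-GFP+ and 8 of CD31-GFP-CD45+ cells beside plates of the common gate. Leaving out their GFP+ plates changed no call on shares. The share of Mon_Ace cells in core and margin therefore rests on another sorting gate than the share in the lungs.

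Mouse blood and lung hold 2 main kinds of monocytes. Classical monocytes carry Ly6C and the chemokine receptor CCR2, leave the bone marrow and enter inflamed tissue. Patrolling monocytes have low Ly6C, depend on the transcription factor Nr4a1 for their survival, crawl along the inner wall of small vessels and are abundant in the capillaries of the lung. The study's text calls Mon_Ace cells classic monocytes, whereas the working label for these cells was patrolling monocytes, so that markers of both kinds were read in them first.

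Mon_Ace cells held a median of 1047 unique molecular identifiers (UMIs, each standing for 1 captured transcript) and 473 genes per cell. Median UMIs per cell lay between 914.5 and 1158.5 in every lung status and were 2977.5 in Primary. Mitochondrial transcripts took 2.00% to 2.62% of UMIs in every status. Counts of the Mon_Ace cells of 1 mouse and status were added up where at least 10 cells were present, which gave 32 sums of 7125 to 172684 UMIs from 1232 cells. Normal had 3 sums, Pre-MET 3, Relapse-free 5, Distal normal tissue 8 and MET 7, while MET Core, MET Invasive margin and Primary had 2 each and entered no test of expression. Levels by status are given as CPM, UMI counts scaled to a common total over the genes that entered the test and to the TMM factors of the sums. Values set against other monocytes and summed markers of other cell types are CPM over all genes without TMM scaling. So are the fold limits given for genes without a UMI in Normal.

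Mon_Ace cells held more of the patrolling markers than Mon_Fn1 cells and less of most classical markers. They were set against Mon_Fn1 cells of the same mouse and status, in 31 samples of 23 mice with at least 10 cells of each, by the log2 ratio of CPM + 10. The annotation was made from the expression of these same cells, so these ratios describe it and no test was made. Of 23 patrolling markers, 19 had a median log2 ratio above 1, and the median of the list was 2.27. Of 14 classical markers present in the files, 12 had a median log2 ratio below -1, and the median of that list was -2.03. Some classical markers were still abundant in Mon_Ace cells, with Plac8 at a mean of 3289 CPM against 3919 in Mon_Fn1 cells and Hp at 893 against 1576 CPM, both above the mean of 557 CPM for Ace. Both were chosen after their values were seen. Over all 9514 genes at 10 CPM or more, the median ratio was 0, 1.63% lay above 1 and 6.82% below -1. Mon_Ace cells were the shallower of the pair, with a median over samples of 1046 UMIs per cell against 1677.

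The naming markers differed in how sharply they marked the cells. Ace (chr11:105967945-105989964, plus strand, mm10), which encodes angiotensin-converting enzyme, was higher in Mon_Ace than in Mon_Fn1 cells in 30 of 31 samples, with a median log2 ratio of 2.79. Cd36 (chr5:17781690-17888801, minus strand), a scavenger receptor for oxidized lipid and fatty acids, was higher in 28 of 31 samples with a median of 3.45. Nr4a1 (chr15:101254269-101274795, plus strand), the nuclear receptor of patrolling monocytes and also an immediate early gene, was higher in 30 of 31 samples but with a median of only 0.73. Thus Nr4a1 was present in both populations and differed least of the 3.

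**Figure D1:**
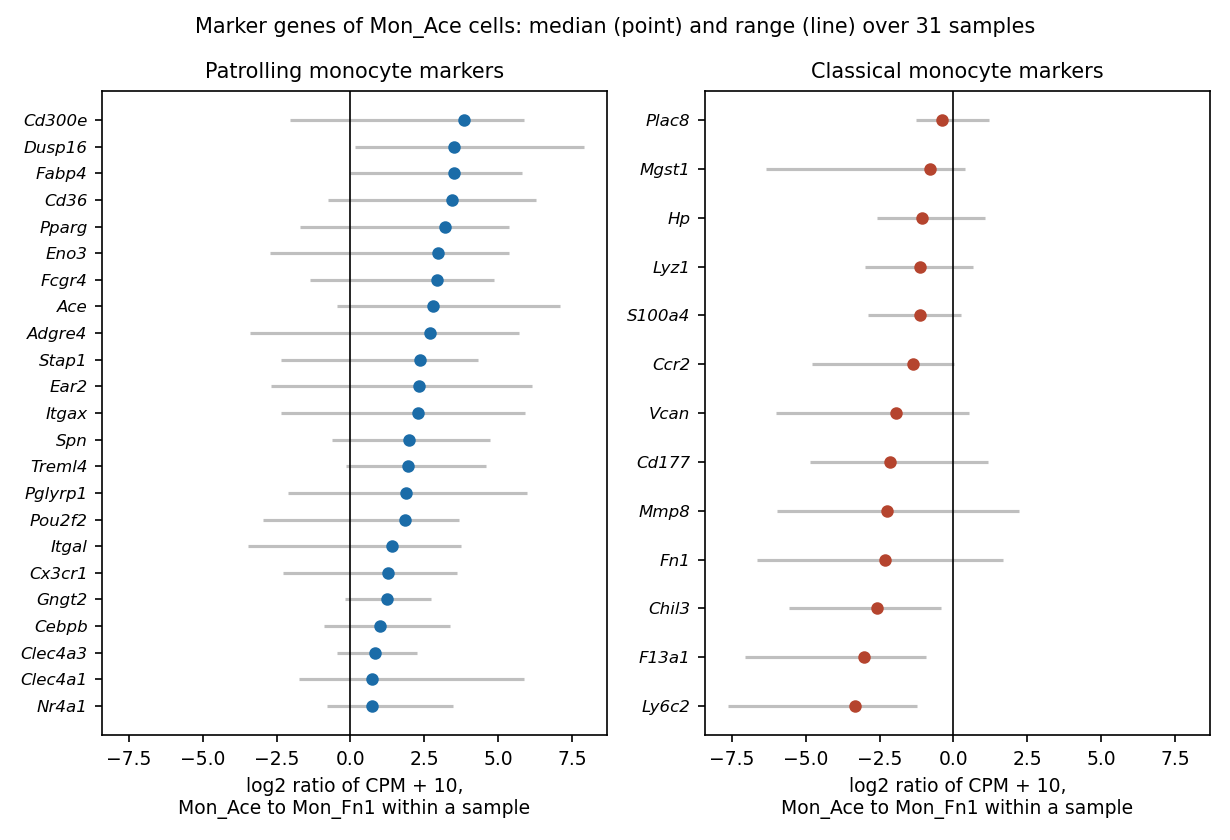
Log2 ratio of Mon_Ace to Mon_Fn1 cells of the same sample (x axis, CPM + 10) for the patrolling (left) and classical (right) markers, with the median as a point and the range over 31 samples as a line. Of the patrolling markers 19 of 23 have a median above 1, and the classical markers, of which 13 are drawn, all have a median below 0.

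The 20 genes with the highest median ratio against Mon_Fn1 were ranked among genes with a mean over 50 CPM in Mon_Ace cells. Genes could thus enter through the population in which they are high, so the ranking describes the cells and was not tested. At its head stood Cd300e, an activating receptor of monocytes, with a median log2 ratio of 3.84, followed by Dusp16, a phosphatase acting on MAP kinases, with 3.52 and higher in 31 of 31 samples. Fabp4, a fatty acid carrier, stood at 3.51 and Pparg, the nuclear receptor that drives Cd36 and Fabp4 transcription in macrophages, at 3.20. Lipid handling genes as a list did not stand apart. Of 16 at 10 CPM or more, 4 lay above 1 and 1 below -1, with a median of 0. Fcgr4, the Fc receptor used as a surface marker of patrolling monocytes, stood at 2.95, and Adgre4, an adhesion receptor of the EMR family, at 2.71. S1pr5, a sphingosine-1-phosphate receptor for exit from the bone marrow, stood at 2.79. The Bcl2 relatives Bcl2a1d (3.14), Bcl2a1b (2.41) and Bcl2a1a (2.29) were also in the set, but these are near-identical copies between which the counting can divide reads. The remaining members were Eno3, Ace, Cd36, Spata13, Tgm2, Gm29094, Cd83, Stap1, Ccnd2 and Ear2. Not all set the cells apart from other monocytes. The medians of Tgm2, Cd83, Ccnd2, Bcl2a1b and Bcl2a1a lay below 1 against both Mon_Thbs1 and Mon_MHC-II cells. Further markers outside the 20 were Spn (CD43) at 1.97, Treml4 at 1.94, Bcl2 at 1.84, Apoe at 1.76 and the fractalkine receptor Cx3cr1 at 1.27. Apoe was higher in Mon_Ace cells in 31 of 31 samples.

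Genes on the lower side included classical monocyte markers, beside genes outside that list such as Crip1, Capg and S100a10. Ly6c2 (chr15:75108158-75111970, minus strand), which encodes Ly6C, had a median log2 ratio of -3.34 and was higher in Mon_Ace in 0 of 31 samples. The coagulation factor gene F13a1 (-3.02) and Chil3 (-2.59), a chitinase-like protein of bone marrow derived monocytes, were likewise higher in 0 of 31 samples. Fn1 (fibronectin) stood at -2.31, Vcan (versican, an extracellular matrix proteoglycan) at -1.93 and Ccr2 at -1.36. Galectin genes were low as well, with Lgals1 at -2.0 and Lgals3 at -1.41. Plac8, often listed with the classical set, differed little (-0.38).

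Against the other monocytes the same markers separated the cells to different extents. Against Mon_Thbs1 cells (13 samples), 19 of 23 patrolling markers had a median above 1, Ace stood at 2.53 and Ly6c2 at -3.41, and 7 of 14 classical markers lay below -1. Inflammatory mediators were lower in Mon_Ace, with 13 of 18 below -1 and a list median of -1.75 where 8.94% of all genes lay below -1. Against Mon_MHC-II cells (20 samples), 17 of 23 patrolling markers lay above 1, but Ace stood at 1.48 and Ly6c2 at -1.50, which were the smallest of the 3 contrasts for both genes. Of the 13 classical markers at 10 CPM or more there, 2 lay below -1 and 2 above 1, and the median was 0. All 8 genes of the MHC class II list lay below -1 there, with a median of -3.53.

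Ace and Cd36 were also seen in a larger share of single Mon_Ace cells than of other monocytes. After thinning every cell to 500 UMIs, Ace was seen in 17.6% of Mon_Ace cells (30.5% unthinned), against 3.64% of Mon_Fn1, 3.25% of Mon_Thbs1 and 9.08% of Mon_MHC-II cells. Cd36 was seen in 9.67% (15.3% unthinned) against 0.557%, 1.26% and 2.21%. Ly6c2 was seen in 7.05% of Mon_Ace (12.7% unthinned) and 49.9% of Mon_Fn1 cells, and in 9.15% of naive CD4 T cells, which can express it. The same T cells (T_CD4_Lef1) and B cells, which should lack Ace, showed Ace in 0.132% and 0.095% of cells, at median depths of 933.5 and 1001 UMIs before thinning. Nr4a1 was seen in 32.9% of Mon_Ace (53.5% unthinned) and 18.4% of Mon_Fn1 cells, and in 8.34% of B cells, which express it on activation.

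The share of Mon_Ace cells among monocytes was highest in Normal lungs and lower in Relapse-free lungs, Distal normal tissue and MET; for Pre-MET, 3 samples a side did not allow a call. In Normal lungs Mon_Ace cells made up 62.3%, 54.4% and 60.4% of monocytes in the 3 mice, a mean of 59.0% ± 4.14 (SD, n = 3). In Pre-MET lungs they made up 18.2%, 26.0% and 23.7%, a mean of 22.6% ± 4.01 (SD, n = 3), so that the groups did not overlap. Relapse-free lungs lay between, at 30.0% to 50% and a mean of 38.3% ± 7.05 (SD, n = 6). Distal normal tissue ranged from 5.71% over a median of 17.0% to 37.1%, with a mean of 18.9% ± 9.83 (SD, n = 14). MET ranged from 0% to 31.0% with a mean of 13.6% ± 9.52 (SD, n = 13).

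The differences were tested by two-sided permutation of the samples, exact where noted, with adjustment over 10 comparisons. Relapse-free lungs were lower than Normal, with a difference of -20.7 percentage points (exact permutation p = 0.0119, adjusted 0.0238). Distal normal tissue differed from Normal by -40.1 points (exact permutation p = 0.00147, adjusted 0.00595) and MET by -45.4 points (exact permutation p = 0.00179, adjusted 0.00595). In each of these 3 contrasts every sample lay below every Normal sample. The Pre-MET difference of -36.4 points had an exact permutation p of 0.1, which is the smallest that 3 samples against 3 can give. These contrasts share the 3 Normal samples, and all Normal plates belonged to sequencing batch SB102, which held no other status, so that batch and Normal cannot be told apart.

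Comparisons that did not use Normal went in the same order. Distal normal tissue was lower than Relapse-free, by a difference of -19.4 points (exact permutation p = 0.000516, adjusted 0.00516). Pre-MET differed from Relapse-free by -15.7 points with no overlap (exact permutation p = 0.0119, adjusted 0.0238), although without Pre-MET mouse 8 the p was 0.107. Within sequencing batches the direction was the same, although some mice were sequenced in more than 1 batch and count in each. In SB99 the mean was 19.4% in 3 Pre-MET and 39.2% in 2 Relapse-free samples, and in SB111, which held further plates of 2 of these Pre-MET and both of these Relapse-free mice, it was 26.2% and 44.5%. In SB118 the mean was 16.7% in 7 Distal normal samples and 30.0% in 1 Relapse-free sample. In SB112 1 sample of each gave 7.87% and 32.5%, and in SB128 2 Distal normal samples averaged 26.7% against 50% in 1 Relapse-free sample.

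No difference was called between lesion-bearing sections and lung away from them. MET differed from Distal normal tissue by -5.31 points (permutation p = 0.166, adjusted 0.236). In the 13 mice with both tissues the mean difference was -6.15 points, with MET higher in 3 of 13 mice (exact sign-flip permutation p = 0.109). Distal normal tissue and Pre-MET differed by -3.72 points (exact permutation p = 0.543, adjusted 0.603). Within batches MET was again the lower tissue, with 9.90% in 6 MET against 16.7% in 7 Distal normal samples of SB118, and 13.8% against 21.6% in 4 and 4 samples of SB124. In SB128 the means were 23.8% in 4 MET samples, 2 of them further plates of mice in SB124, and 26.7% in 2 Distal normal samples.

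Inside the lesions the spread was wide. Mon_Ace cells made up 12% ± 8.64 (SD, n = 13) of monocytes in MET Core and 13.3% ± 10.9 (SD, n = 7) in MET Invasive margin, a difference of -1.29 points (exact permutation p = 0.774). In 6 mice with both regions the mean difference was -3.22 points, with the core higher in 1 of 6 (exact sign-flip permutation p = 0.594). Primary tumors held 4.96%, 10.2%, 4.03% and 8.00%, a mean of 6.79% ± 2.83 (SD, n = 4), and MET Core was 5.17 points higher (exact permutation p = 0.272). In the 3 mice that gave both tissues, each primary tumor held a lower share than the lungs. No Mon_Ace cell was found in 3 samples, namely MET of mouse 34 (0 of 34 monocytes, which allows a share of up to 8.82%), MET Core of mouse 25 (0 of 17, up to 17.6%) and MET Invasive margin of mouse 32 (0 of 6, up to 50%). Such limits cover counting error only.

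**Figure D2:**
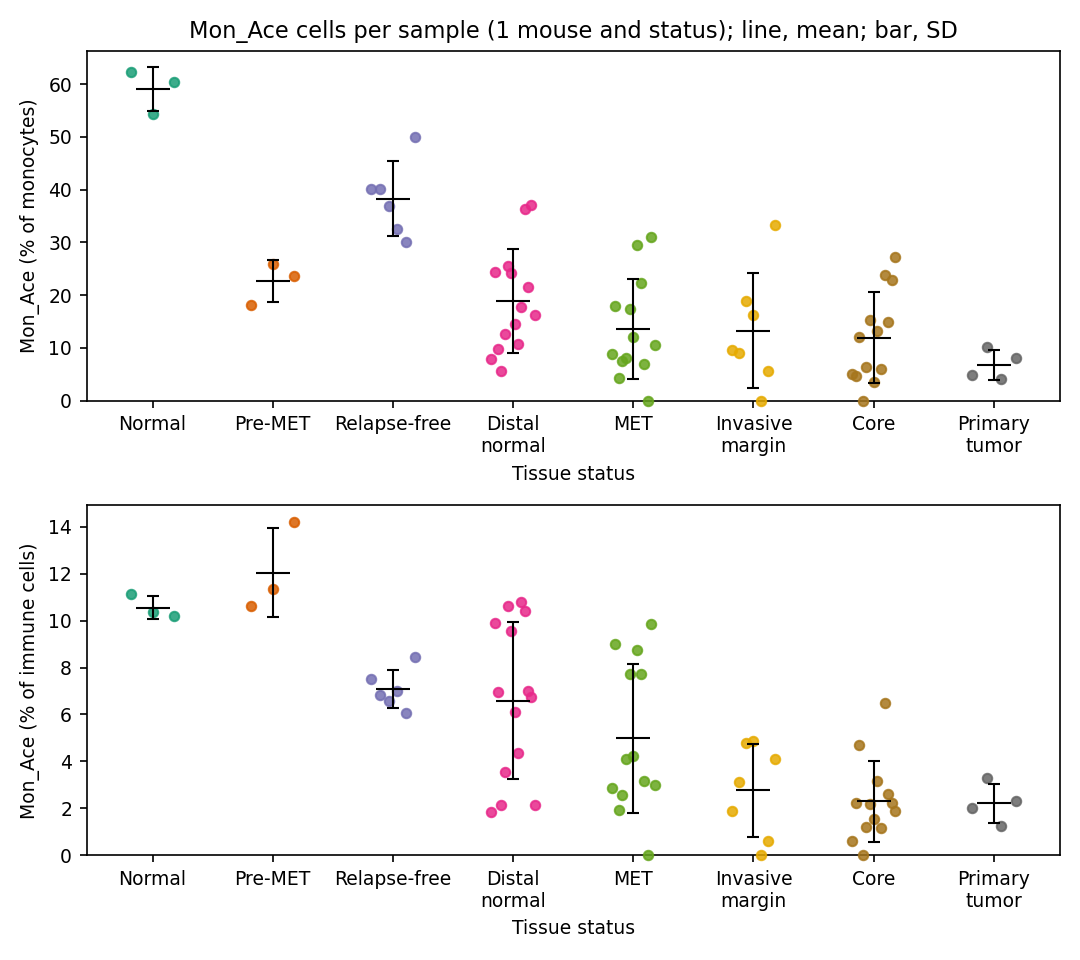
Mon_Ace cells as a percentage of monocytes (top) and of all immune cells (bottom) in each of 63 samples, by tissue status, with the mean as a line and the SD as a bar. The 3 Normal samples lie at 54.4% to 62.3% of monocytes, above every sample of the other statuses, whereas as a percentage of immune cells Pre-MET lies at 10.6% to 14.2% and Normal at 10.2% to 11.1%.

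As a share of all immune cells, Normal and Pre-MET lungs were not shown to differ. Mon_Ace cells made up 10.6% ± 0.487 (SD, n = 3) of immune cells in Normal and 12% ± 1.90 (SD, n = 3) in Pre-MET lungs, a difference of +1.49 points (exact permutation p = 0.2, where 0.1 is the smallest possible). With cells of at least 1000 UMIs alone the difference turned to -0.209 points. All other monocytes together made up 7.37% ± 1.15 of immune cells in Normal and 41.9% ± 8.42 in Pre-MET (SD, n = 3 each), a difference that was not tested. The low share of Mon_Ace cells among Pre-MET monocytes thus stood beside a large share of other monocytes.

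Lower shares of immune cells were found after resection. Relapse-free lungs had 7.08% ± 0.825 (SD, n = 6), a difference of -3.47 points from Normal (exact permutation p = 0.0119, adjusted 0.0331), and Pre-MET stood 4.96 points above Relapse-free (exact permutation p = 0.0119, adjusted 0.0331), without overlap in either case. Within SB99 the means were 10.5% in Pre-MET and 7.07% in Relapse-free, and within SB111, on further plates of the same mice without Pre-MET mouse 9, 14.5% and 9.35%. MET had 4.99% ± 3.18 (SD, n = 13), a difference of -5.57 points from Normal (exact permutation p = 0.00357, adjusted 0.0331). Distal normal tissue had 6.58% ± 3.34 (SD, n = 14), a difference of -5.47 points from Pre-MET (exact permutation p = 0.0132, adjusted 0.0331) and of -3.98 points from Normal (exact permutation p = 0.0559, adjusted 0.112). Without Pre-MET mouse 10 the first of these had a p of 0.0917, and without mouse 27, 32 or 33 the second had 0.0393, 0.0339 or 0.0411 (exact permutation). No batch held both Distal normal and Pre-MET samples. With cells of at least 1000 UMIs only, Pre-MET stood 2.86 points above Relapse-free (exact permutation p = 0.0595). Distal normal tissue then differed from Pre-MET by -4.30 points (exact permutation p = 0.172). Both kept their direction but missed the threshold, and the reason was not tested.

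The remaining shares of immune cells did not differ by the test. Distal normal tissue and Relapse-free lungs differed by -0.503 points (exact permutation p = 0.722), and MET and Distal normal tissue by -1.59 points (permutation p = 0.214), with a paired mean of -1.95 points and MET higher in 4 of 13 mice (exact sign-flip permutation p = 0.108). MET Core held 2.31% ± 1.72 (SD, n = 13), MET Invasive margin 2.77% ± 1.98 (SD, n = 7) and Primary 2.21% ± 0.844 (SD, n = 4). MET Core and margin differed by -0.464 points (exact permutation p = 0.591), and MET Core and Primary by 0.0961 points (exact permutation p = 0.922).

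The naming genes themselves were measured in every status. Ace stood at 672, 338 and 762 CPM in the 3 Normal sums and at 487, 540 and 416 CPM in the 3 Pre-MET sums. In MET it ran from 406 over a median of 876 to 1683 CPM, with a mean of 995 ± 440 (SD, n = 7), and in Distal normal tissue from 105 to 1403 CPM. Normal overlapped with each of Pre-MET, Distal normal tissue and MET, and MET against Normal gave a log2 fold change of 0.75 ± 0.50 (SE, adjusted p = 0.741, edgeR). Nr4a1 averaged 1415 ± 123 CPM in Normal (n = 3), 845 ± 254 in Pre-MET (n = 3), 1595 ± 599 in Relapse-free (n = 5), 1052 ± 740 in Distal normal tissue (n = 8) and 1622 ± 540 in MET (n = 7), all as mean ± SD. All 3 Pre-MET sums (576, 877 and 1082 CPM) lay below all 3 Normal sums (1276, 1456 and 1512 CPM), with a log2 fold change of -0.75 ± 0.52 (SE, adjusted p = 1, edgeR). In single cells thinned to 500 UMIs, Nr4a1 was seen in 20.6% of Mon_Ace and 4.00% of B cells in Pre-MET, 30.7% and 4.93% in Normal and 40.8% and 16% in MET. Without thinning these were 38.2% and 6.67%, 49.5% and 8.37%, and 60.8% and 22.0%. The order of the 3 statuses was the same in both populations.

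Cd36 had its highest mean in Normal lungs. It stood at 1056, 793 and 762 CPM in Normal and at 297, 234 and 416 CPM in Pre-MET, with no overlap and a log2 fold change of -1.45 ± 0.71 (SE, unadjusted p = 0.0456, adjusted p = 1, edgeR). Relapse-free sums ran from 110 to 585 CPM and lay below all Normal sums as well (log2 fold change -1.38 ± 0.61, adjusted p = 0.999). Distal normal tissue ran from 70.6 to 795 CPM and MET from 91.0 to 768 CPM, so that these overlapped Normal. In the sums of MET Core (0 and 65.5 CPM), MET Invasive margin (0 and 364 CPM) and Primary (0 and 96.6 CPM), at least 1 of the 2 held no Cd36 UMI. Neither Ace, Nr4a1 nor Cd36 passed the test in any of the 8 contrasts.

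**Figure D3:**
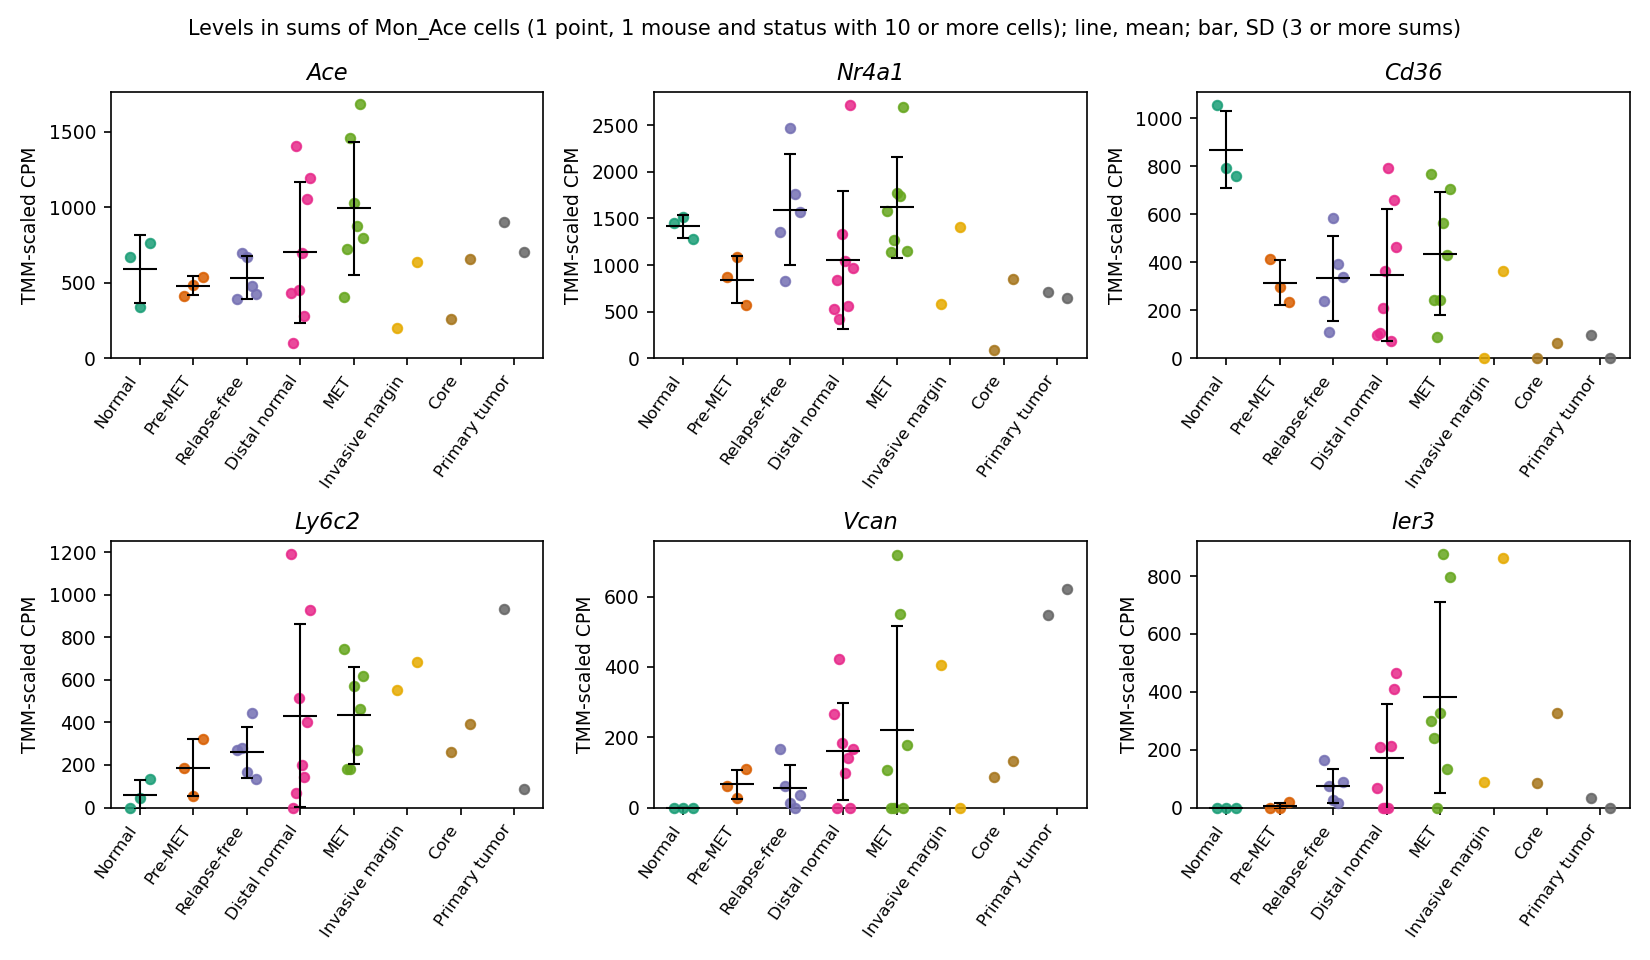
Levels (CPM, linear axis) of Ace, Nr4a1, Cd36, Ly6c2, Vcan and Ier3 in the 32 sums of Mon_Ace cells by tissue status, 1 point per sum, with the mean as a line and the SD as a bar where a status has 3 or more sums. Ace overlaps between Normal and MET, Cd36 lies at 762 to 1056 CPM in Normal and at 234 to 416 CPM in Pre-MET, and Vcan and Ier3 are at 0 in the 3 Normal sums.

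Expression across all genes was compared in 8 contrasts of 3164 genes with edgeR's quasi-likelihood test, and few genes passed an adjusted p of 0.05. MET against Normal gave 26 genes (0.822% of genes tested), 6 higher and 20 lower. Distal normal tissue against Normal gave 8 (0.253%), against Relapse-free 14 (0.442%, all lower) and against Pre-MET 33 (1.04%, 31 of them lower). Pre-MET against Normal, Relapse-free against Normal, Pre-MET against Relapse-free and MET against Distal normal tissue each gave 0 calls (0% of genes tested) in edgeR and 0 in DESeq2. At an unadjusted p under 0.05, these 4 contrasts had 114, 82, 114 and 118 genes. The 4 contrasts with calls had 276, 249, 229 and 292 in the order named. Leaving out 1 mouse at a time, the 4 contrasts with calls gave 2 to 47, 1 to 19, 1 to 30 and 14 to 50 genes, with the lowest counts without mouse 3, mouse 1 or 3, mouse 7 or 11 and mouse 8. The contrasts share sums, so that a gene found in several of them was not found independently.

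Ms4a4a (chr19:11375523-11392790, plus strand), a four-transmembrane protein of macrophages and monocytes, rose in MET against Normal. It stood at 496, 426 and 647 CPM in the 3 Normal sums and from 1092 over a median of 2592 to 3432 CPM in the 7 MET sums, with no overlap. The mean was 2450 ± 775 CPM in MET and 523 ± 113 in Normal (SD), and the log2 fold change was 2.24 ± 0.53 (SE, adjusted p = 0.0186, edgeR). Leaving out 1 mouse at a time, it was called in 6 of 10 fits, with an adjusted p of at most 0.191. Distal normal tissue ran from 745 to 2160 CPM and Relapse-free from 478 to 2023 CPM, and neither passed the test against Normal (adjusted p = 0.394 and 0.999, edgeR). The 5 Relapse-free sums, each of another mouse and another main batch, stood at 478 CPM in SB99, 617 in SB96, 990.5 in SB101, 1392 in SB112 and 2023 in SB128. All 3 Normal sums were in SB102, which held no MET sum, and 4 of 7 MET sums were in SB128, so that batch and status cannot be told apart in this contrast. In the cells of batch SB128 alone, which held no Normal sample, Ms4a4a before TMM scaling stood at 1426 CPM in Relapse-free, 817 and 1678 CPM in Distal normal tissue and 1917 to 2763 CPM in 4 MET mice. MET against Distal normal tissue gave a log2 fold change of 0.89 ± 0.36 (SE, unadjusted p = 0.0147, adjusted p = 0.998, edgeR).

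Ier3 (chr17:35821684-35822923, plus strand), an immediate early response gene that acts on cell survival, rose in MET and in Distal normal tissue. No Ier3 UMI was found among the 250151 UMIs of the 3 Normal sums. MET sums ran from 0 to 876 CPM with 1 of 7 at 0, and 121 UMIs of 388242 put MET at least 26.0-fold higher than the limit that 3 UMIs over the Normal sums would give (12 CPM), or at least 16.8-fold without mouse 32. Distal normal tissue was at least 17.0-fold higher than that limit, although 3 of its 8 sums held none, and at least 9.70-fold higher without mouse 36, which held 51 of its 72 Ier3 UMIs. The adjusted p was 0.00479 for MET and 0.0432 for Distal normal tissue (edgeR). Leaving out 1 mouse at a time, Ier3 was called in 8 of 10 fits for MET and in 5 of 11 for Distal normal tissue, with adjusted p of up to 0.0732 and 0.377. Relapse-free, with all 5 sums between 17.1 and 165 CPM, was at least 4.43-fold higher than the limit but did not pass the test (adjusted p = 0.999). In the cells of SB128 alone Ier3 before TMM scaling stood at 17.9 CPM in Relapse-free, 295 and 361 CPM in Distal normal tissue and 96.0 to 731 CPM in MET. In SB118, also before TMM scaling, Distal normal tissue ran from 0 to 281 CPM. Pre-MET held 1 Ier3 UMI of 215473, and the Primary sums stood at 0 and 32.2 CPM. All Normal sums were in SB102, which held no other status, so that batch and status cannot be told apart in the contrasts against Normal.

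Among classical monocyte markers, Vcan passed the test for a rise in MET. Vcan (chr13:89655312-89742509, minus strand) had no UMI in Normal and stood at 0 to 717 CPM in MET, where 3 of 7 sums held none, which made MET at least 19.3-fold higher than the limit of 12 CPM, or at least 12.6-fold without mouse 31 (adjusted p = 0.0262, edgeR). The MET sums of mice 31 and 32 stood at 717 and 551 CPM, and the rest at 177 CPM or below. The bound without mouse 31 therefore still rests mostly on mouse 32. Leaving out 1 mouse at a time, Vcan was called in 5 of 10 fits. In Primary, which entered no test, the sums stood at 547 and 621 CPM. Vcan was not confined to MET and Primary. Pre-MET ran from 27.0 to 108 CPM, Relapse-free from 0 to 165 CPM and Distal normal tissue from 0 to 421 CPM. Pooled, these were at least 4.26-fold, 3.10-fold and 6.85-fold higher than the same limit, and none was called against Normal. Without mouse 11 the bound for Relapse-free was 1.77-fold.

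Ly6c2, the gene that separates the 2 kinds of monocytes, lay higher outside Normal lungs without passing the test. It stood at 0, 44.0 and 133 CPM in Normal and at 54.1, 324 and 185 CPM in Pre-MET. Relapse-free ran from 134 to 444 CPM and MET from 181 over a median of 462 to 747 CPM, both above every Normal sum, while Distal normal tissue ran from 0 to 1191 CPM. The log2 fold change against Normal was 2.89 ± 0.80 for MET (SE, adjusted p = 0.0589, edgeR) and 2.99 ± 0.80 for Distal normal tissue (adjusted p = 0.0736). Ccr2 averaged 159 ± 86.6 CPM in Normal (SD, n = 3) and 484 ± 374 in MET (SD, n = 7), with a log2 fold change of 1.62 ± 0.65 (SE, adjusted p = 0.369, edgeR). Of the 12 classical markers tested, 10 were on the higher side in MET against Normal, with a median log2 fold change of 1.06 where all genes had -0.02. Against Normal the same list stood at 10 of 12 and 1.18 in Distal normal tissue, 11 of 12 and 0.79 in Pre-MET and 12 of 12 and 0.33 in Relapse-free, where all genes had a median of 0.14. Against Normal, Vcan, higher, and Lyz1, lower, were called among them, both in MET, where 0.822% of all genes were called.

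Shares of single cells put these levels beside background. After thinning to 500 UMIs, Ly6c2 was seen in 1.38% of Normal Mon_Ace cells (exact 95% binomial interval 0.285% to 3.97%), 2.94% of Pre-MET, 5.71% of Relapse-free, 10.7% of Distal normal tissue and 9.62% of MET cells. B cells of the same statuses, read as background, showed it in 0.985%, 1.33%, 2.65%, 3.88% and 4.00%. The B cell shares of Normal, Pre-MET and Relapse-free rested on 2 of 203, 1 of 75 and 6 of 226 cells, so that their order was not read. Shares of both populations pool the cells of all mice of a status, so that their intervals cover counting error only and were not used to compare statuses or populations. Without thinning, the Mon_Ace shares were 3.21%, 7.65%, 11.4%, 16.4% and 17.3%. Ccr2 was seen in 2.29% of Normal and 8.08% of MET Mon_Ace cells (4.13% and 16.2% unthinned). Among B cells the shares were 0.985% and 0%, with an exact 95% upper bound of 2.43% for 0 of 150 MET cells (counting error only). In MET Invasive margin Ccr2 was seen in 28.0% of 50 and in Primary in 23.5% of 34 Mon_Ace cells. Median depth before thinning was 997 UMIs in Normal and 1076 in MET Mon_Ace cells, and 805 and 956 in the B cells.

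**Figure D4:**
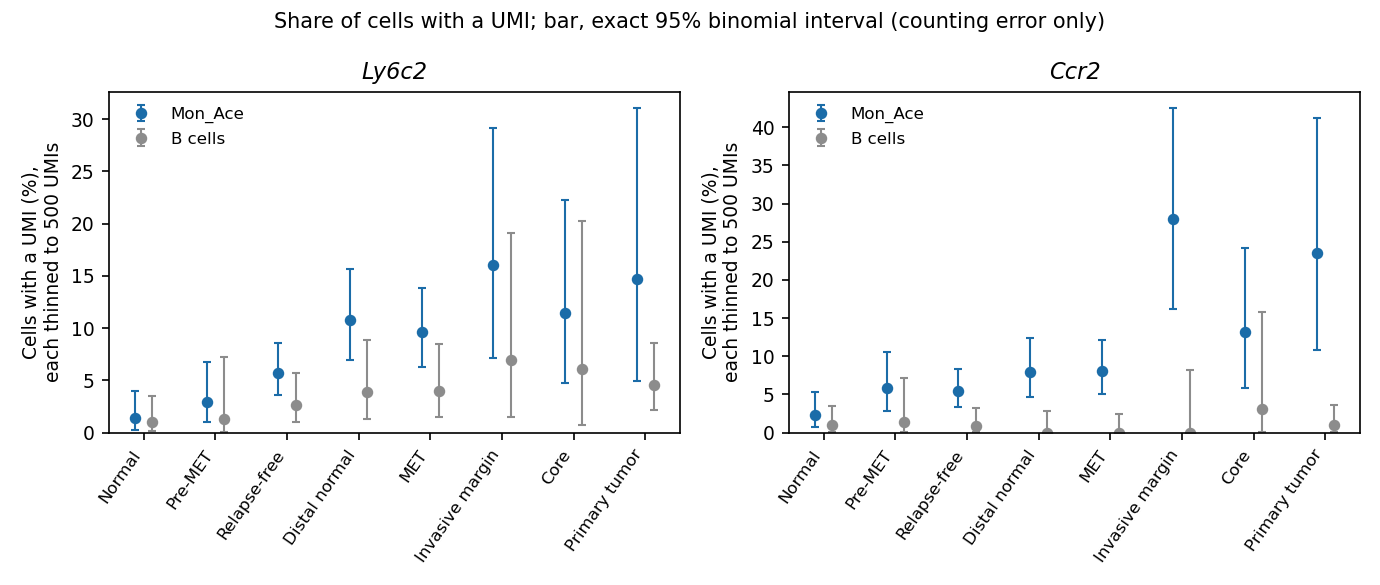
Percentage of Mon_Ace cells (blue) and B cells (grey) with at least 1 UMI of Ly6c2 (left) or Ccr2 (right) after thinning to 500 UMIs, by tissue status, with exact 95% binomial intervals for counting error only. Ly6c2 goes from 1.38% in Normal to 9.62% in MET for Mon_Ace cells while B cells go from 0.985% to 4.00%, and Ccr2 in B cells stays at or below 3.03% in every status.

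Patrolling markers showed the opposite balance and none was called in the 8 contrasts, where 0% to 1.04% of all genes were called. In MET against Normal 6 of 23 were on the higher side with a median log2 fold change of -0.36, and in Distal normal tissue 4 of 23 with -0.53, against medians of -0.02 and -0.06 over all genes. In Pre-MET against Normal 8 of 23 were higher (median -0.19), and in MET against Distal normal tissue 13 of 23 (median 0.24, all genes 0.07). Treml4 averaged 598 ± 198 CPM in Normal (SD, n = 3), 557 ± 321 in Pre-MET (n = 3) and 474 ± 235 in MET (n = 7). Fcgr4 averaged 852 ± 159, 737 ± 324 and 652 ± 398 CPM in the same statuses. Ace and Nr4a1, also on the list, went the other way, with higher means in MET than in Normal.

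Other gene groups held few calls or none. Of 25 immediate early and heat shock genes, 21 were on the higher side in MET against Normal (median log2 fold change 0.72), 23 in Relapse-free against Normal (0.42) and 0 in Pre-MET against Relapse-free (-0.87, all genes -0.11). Ier3 was the only gene of this group called, in MET and in Distal normal tissue against Normal, where 0.822% and 0.253% of all genes were called. In the other 6 contrasts between 0% and 1.04% of all genes were called. Of 14 MHC class I genes, 2 were on the higher side in MET against Normal (-0.35), 4 in Pre-MET (-0.57) and 1 in Distal normal tissue (-0.47), and none was called in any contrast. Of 30 interferon response genes tested, 18 were on the higher side in MET against Normal (0.15) and 9 in Pre-MET against Normal (-0.33), with no call. Of 12 inflammatory mediators tested, 10 were on the higher side in MET against Normal (1.55) and 7 in Pre-MET (0.19), also with no call. Of 9 galectin and Mon_Fn1 genes tested, a list the study chose on these samples, 8 were on the higher side in MET against Normal (1.05) and Vcan alone was called. MHC class II, trafficking receptors, Fc receptors, lipid handling, glycolysis, lysosomal and survival genes had 0 calls in the 8 contrasts.

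Transcripts of other cell types were present, and some moved with a result. Ccl5, a chemokine abundant in NK and T cells, was lower in MET, at 0 to 256 CPM in 7 sums against 426 to 784 CPM in 3 Normal sums (log2 fold change -2.48 ± 0.63, SE, adjusted p = 0.0359, edgeR). MET and Normal did not overlap. Ccl5 also lay below every Normal sum in Pre-MET (15.4 to 198 CPM) and Distal normal tissue (0 to 364 CPM), without a call, while Relapse-free ran from 191 to 957 CPM. Summed, 6 NK cell markers stood at 228 to 350 CPM in Normal, 98.6 to 491 in Relapse-free, 11.0 to 101 in Pre-MET, 0 to 242 in Distal normal tissue and 0 to 116 in MET. In the same statuses 8 T cell markers stood at 84.1 to 104, 35.9 to 264, 0 to 121, 0 to 52.1 and 0 to 45.4 CPM. The summed levels are not TMM-scaled, whereas the Ccl5 levels are. The part of these markers in the Ccl5 result was not tested. Neutrophil markers summed to 413 to 939 CPM in Normal, 927 to 1139 in Pre-MET, 350 to 3210 in Relapse-free, 353 to 10414 in Distal normal tissue and 204 to 1634 in MET. S100a8 was the most abundant of them, and with mouse as a block it was the 1 gene of 516 called between MET and Distal normal tissue (log2 fold change -2.12 ± 0.47, SE, adjusted p = 0.014, edgeR, 4 mice). The same 4 mice without the block gave 0 calls. Of 5 erythroid markers 3 were tested, and all 3 had an unadjusted p under 0.05 for Distal normal tissue against Pre-MET (median log2 fold change 5.52, higher), MET against Distal normal tissue (-2.94) and Pre-MET against Relapse-free (-5.18), with 0 called. Their summed level was 0 in all Pre-MET sums, 0 to 119 CPM in Normal, 0 to 951 in Relapse-free, 0 to 1404 in Distal normal tissue and 0 to 244 in MET, and their part in any result was not tested. Tumor macrophage markers summed to 10.9 to 69.2 CPM in Normal, 0 to 11.0 in Pre-MET, 26.9 to 118 in Relapse-free, 0 to 878 in Distal normal tissue, 24.0 to 693 in MET and 369 to 1149 in Primary. Of 9 such markers 1 was tested, C1qb, a complement subunit of macrophages, which held no read in Normal. Its fitted log2 fold change, which depends on the prior count and is no bound, was 5.21 in Distal normal tissue and 4.76 in MET against Normal, both at an unadjusted p under 0.05, with 0 called (edgeR). The part of these markers in any result was not tested.

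Several of the called genes moved with the sequencing batch. Each sum was given the batch that held the largest number of its cells, and 7 of 32 sums, from Pre-MET mice 8 and 10, Relapse-free mice 6 and 7 and MET mice 24, 31 and 32, held cells of more than 1 batch, with 41.2% to 80.0% of cells in the batch named. Gm25594, annotated as a miRNA gene, was lower in MET and in Distal normal tissue against Normal with the lowest p of both contrasts (log2 fold change -5.93 ± 1.05 in MET, SE, adjusted p = 0.000391, edgeR). It stood at 264 to 580 CPM in all sums of batches SB96, SB99, SB101, SB102 and SB111, at 33.1 to 134 CPM in SB112 (1, 2 and 11 UMIs), and at 0 in all sums of SB118, SB126, SB128 and SB132. The Relapse-free sum of SB128 (mouse 35) was at 0, whereas those of SB96, SB99 and SB101 stood at 345 to 580 CPM. Gm12319, a lincRNA, went the other way, from 16 to 73.4 CPM in Normal (SB102) to 342 CPM in the Relapse-free sum of SB112 and 572 CPM in that of SB128. Lyz1, a lysozyme gene near-identical to Lyz2 so that reads may be divided between them, was lower in MET than in Normal (log2 fold change -1.88 ± 0.49, SE, adjusted p = 0.0401, edgeR; called in 4 of 10 fits that left out 1 mouse, adjusted p of up to 0.266) and lower in Distal normal tissue than in Relapse-free (-1.89 ± 0.42, adjusted p = 0.0121) and Pre-MET (-2.05 ± 0.47, adjusted p = 0.00784), where 10 of 13 and 10 of 11 such fits called it. Relapse-free sums of Lyz1 stood at 2041 to 5360 CPM in SB96, SB99 and SB101, at 525 CPM in SB112 and at 242 CPM in SB128. With batch as a term, Lyz1 turned to 0.69 and 1.63 in those last 2 contrasts, and all 14 and 33 calls were lost. The other genes named by the rule there kept their sign with smaller fold changes, for example -2.04 for Gm13341 and -0.88 for Gm13339 against Relapse-free, and -1.27 for Gm25594 and -0.94 for Rps10 against Pre-MET (log2).

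**Figure D5:**
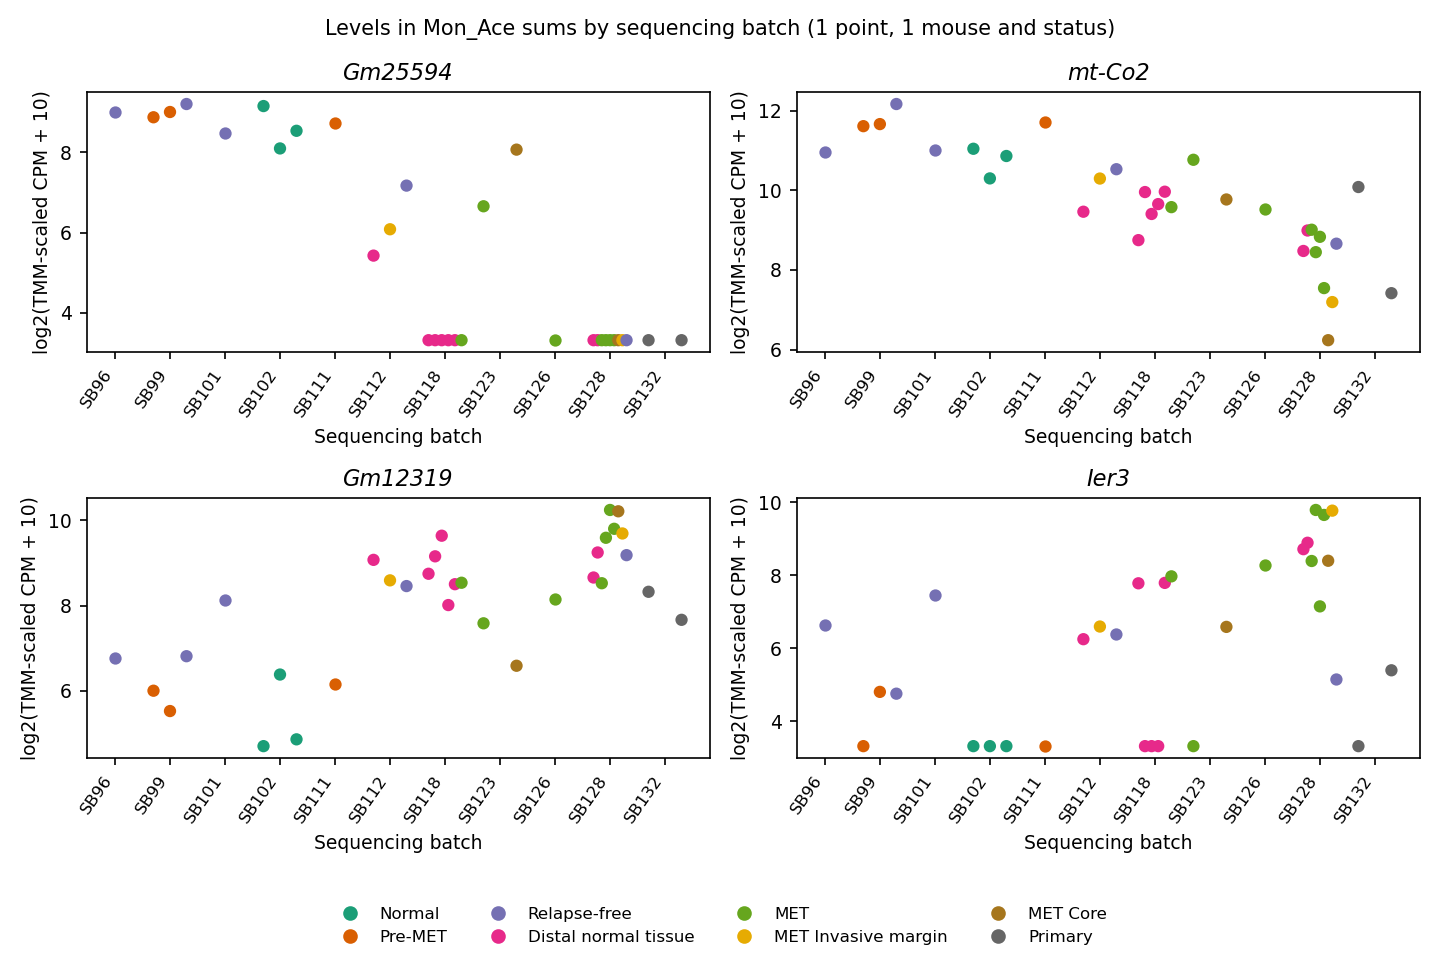
Log2 of CPM + 10 of Gm25594, mt-Co2, Gm12319 and Ier3 in the 32 Mon_Ace sums by sequencing batch (x axis), colored by tissue status. Gm25594 lies at 264 to 580 CPM in the batches up to SB111 and at 0 in SB118, SB126, SB128 and SB132 whatever the status, while Ier3 in the sums assigned to SB128 is at 25.4 CPM in Relapse-free and 132 to 876 CPM in MET.

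The remaining calls included pseudogenes and ribosomal genes. By name, ribosomal or mitochondrial genes made up 2 of 26 calls in MET against Normal. For Distal normal tissue against Normal, Relapse-free and Pre-MET they made up 0 of 8, 3 of 14 and 11 of 33. Their share over all tested genes was not counted. Of the 26 calls in MET against Normal 14 were protein-coding, and of the calls of Distal normal tissue against Normal, Relapse-free and Pre-MET 3, 4 and 11 were. Of all 3164 genes tested, 2622 were protein-coding even without ribosomal and mitochondrial genes. In each of these 4 contrasts protein-coding genes thus made up a smaller part of the calls than of the genes tested. Ccl5, S100a8, Cep85, Ftl1-ps2, Myl6, Bcas2, Nxpe4, Rpl37a, Rps29 and Actg1 fell outside the naming rule and were named after their values were seen. Higher in MET besides those named were Cep85 and Ftl1-ps1, a ferritin light chain copy, which was called in 3 of 10 fits that left out 1 mouse. Another copy, Ftl1-ps2, was called in the opposite direction. Ftl1-ps1 averaged 1777 CPM in MET and 553 in Normal, and Ftl1-ps2 averaged 724 and 2455 CPM. A division of reads between the 2 copies was not tested. Also lower in MET were Gm10837, Gm25593, Gm22761, Gm22426, Myl6, Bcas2, Nxpe4, Rpl37a and Rps29 with further pseudogenes. Distal normal tissue differed from Relapse-free in Gm13341, Gm13339, Rps19-ps11, Gm28437 and Snord32a, and from Pre-MET in Gm8995, Gm4525, Rps10, Gm27935, Gm19243 and Actg1, all lower except Gm8995. From Normal it differed further in Gm8692 and Gm12328, both lower. With batch as a term, MET against Distal normal tissue, Distal normal tissue against Relapse-free, Pre-MET against Relapse-free and Distal normal tissue against Pre-MET each gave 0 genes. No batch held both Distal normal tissue and Pre-MET, so that this contrast was reached only through the other statuses.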

How the data were processed

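Cells were sorted into plates and sequenced by 3' single-cell RNA-seq. The deposited values are raw UMI counts for each gene in each well. For these, the authors aligned reads with HISAT against mm10, left out reads with several positions, kept those on exons and collapsed UMIs; bcl2fastq 2.15.0.4 stands in the submitters' processing notes. Cells under 500 UMIs had been discarded, and the 592 wells left empty by design among 56832 wells were not used as cells. Doublets were gated out at the sort, and no doublet caller was run here. Cell names came from the deposited annotation, joined by well. Each well has its own identifier, so cells are not shared between samples. The samples of a status are separate mice.

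The members and gene lists were chosen with earlier results of these data known. Counts were summed per mouse and status (at least 10 cells), scaled by TMM and tested with edgeR 4.0.16 (quasi-likelihood, filterByExpr, Benjamini-Hochberg adjustment, adjusted p under 0.05) in 1 fit of all statuses, with 8 contrasts of 3164 genes. DESeq2 1.42.0 was an alternative (R 4.3.3). Shares were compared by two-sided permutation tests (numpy 2.4.6, exact, or 100000 resamples for MET against Distal normal tissue), adjusted over 10 comparisons per denominator. Exact binomial intervals came from scipy 1.17.1. Ratios to other monocytes used CPM + 10 within a sample. Genes were named where they were called and every sum of a status lay on 1 side of the mean of the other, taking the 10 largest rises and falls for Pre-MET against Normal and MET against Distal normal tissue and 5 otherwise. Listed genes were named in addition, as were the 20 highest ratios to Mon_Fn1 among genes with a mean over 50 CPM in the Mon_Ace sums. Gene positions are from GENCODE M21 (mm10), which held 48106 of 52634 gene names in the files. A listed classical marker is not reported here by itself. MET and Distal normal sums with the same mouse number come from the same animal per the labels, and their deviations from the status means correlated at r = 0.198 to 0.371 over 516 genes in 4 mice, so that mouse was used as a block as an alternative.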

Additional observations from a re-analysis of the deposited data

Results flagged for a closer look

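Among 45 groups of 4 to 10 samples (13 genes in the 3 statuses with 4 or more sums, and both shares in 3 statuses), 6 held a sum far from the others. The cutoff would flag about 1 in 20 groups of independent, normally spread values. Here flags shared mice, and in the Gm25594 groups all other sums were at 0. The count of 6 is therefore not read as an excess over chance. Nr4a1 stood at 2722 CPM in Distal normal tissue of mouse 36, against 421 to 1335 CPM in the other 7 sums. The MET sum of the same mouse stood at 2690 CPM, against 1145 to 1777 CPM in the others. Gm25594 stood at 33.1 CPM in Distal normal tissue of mouse 17, sequenced in SB112, where the other sums held none, and at 91.0 CPM in MET of mouse 30, sequenced in SB123, where again the others held none. The MET sum of mouse 30 also stood apart in Lyz1, at 1638 CPM against 265 to 603 CPM, and in mt-Co2, at 1729 CPM against 177 to 753 CPM. No other MET sum came from SB123. In mouse 30 itself, the MET Core sum, also from SB123, had Lyz1 at 1379 CPM, Gm25594 at 259 CPM (3 UMIs) and mt-Co2 at 862 CPM, and the Distal normal sum, from SB118, had 141, 0 and 988 CPM.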

How the results depend on the processing

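Shares among monocytes kept their direction and side of the threshold in 35 of 35 changes of setting that left no mouse out and in 136 of 139 that left out 1 mouse. Shares among immune cells did so in 21 of 25 and 132 of 139. With cells of at least 1000 UMIs, the share among immune cells turned to -0.209 points for Pre-MET against Normal and to -0.348 for MET Core against Primary, and missed the threshold at 2.86 for Pre-MET against Relapse-free and -4.30 for Distal normal tissue against Pre-MET. Leaving out 1 mouse at a time, the difference in percent of monocytes ran from -38.7 to -34.2 (Pre-MET against Normal), -23.1 to -19.1 (Relapse-free against Normal), -42.4 to -38.5 (Distal normal tissue against Normal), -47.7 to -43.8 (MET against Normal), -7.26 to -3.41 (MET against Distal normal tissue), -21.0 to -17.0 (Distal normal tissue against Relapse-free), -17.3 to -13.3 (Pre-MET against Relapse-free), -5.94 to -2.04 (Distal normal tissue against Pre-MET), -4.49 to 1.14 (MET Core against margin, reversed at 0.353 without mouse 28 and 1.14 without mouse 36) and 3.89 to 6.30 (MET Core against Primary). In percent of immune cells it ran from 0.415 to 2.20, -3.75 to -3.20, -4.30 to -3.61, -5.97 to -5.15, -2.07 to -1.14, -0.829 to -0.140, 3.89 to 5.68, -6.18 to -4.39, -1.27 to -0.0192 and -0.253 to 0.453 in the same order, the last reversed at -0.229, -0.102 and -0.253 without mouse 10, 24 and 32.

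Counts of called genes were within 1.5 times in 47 of 65 other settings, where a count of 0 that stayed at 0 was also taken as within. The 47 thus include contrasts without calls and do not measure how steady the called counts were. In the contrasts with calls 12 settings gave fewer and 3 gave more genes beyond that range. In the contrasts without calls 3 settings gave some. For Distal normal tissue against Relapse-free (14 genes), upper quartile scaling gave 5, at least 20 cells per sum 7, cells of at least 1000 UMIs 3, a batch term 0, only the 2 statuses 5 and DESeq2 2. For Distal normal tissue against Normal (8), cells of at least 1000 UMIs gave 5 and DESeq2 16. For MET against Normal (26), at least 20 cells gave 63 and only the 2 statuses 48. Pre-MET against Normal gave 6 with only the 2 statuses, and Distal normal tissue against Pre-MET (33) gave 0 with a batch term, where Lyz1 reversed to 1.63 and, against Relapse-free, to 0.69 (log2). Protein-coding genes other than ribosomal and mitochondrial ones, an alternative chosen after seeing the data, gave 3, 10, 2 and 2 for Distal normal tissue against Normal, MET against Normal, and Distal normal tissue against Relapse-free and Pre-MET, and 1 for MET against Distal normal tissue (S100a8). Leaving out 1 mouse gave 1 to 19 genes for Distal normal tissue against Normal (1 without mouse 1 or 3, 5 without 2 or 37, 18 without 17, 19 without 30), 2 to 47 for MET against Normal (2 without mouse 3, 3 without 1, 5 without 32, 6 without 31, 12 without 2, 16 without 24, 47 without 30), 1 to 30 for Distal normal tissue against Relapse-free (1 without mouse 7 or 11, 2 without 6, 7 without 27, 8 without 36, 9 without 18 or 23, 23 without 17, 30 without 35), 14 to 50 for Distal normal tissue against Pre-MET (14 without mouse 8, 16 without 10, 50 without 17) and 0 to 0 in the other contrasts. The cause was not tested.

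With mouse as a replicate block, MET against Distal normal tissue gave 1 gene, S100a8, against 0 in the same mice without the block. The paired differences in shares were -6.15 and -1.95 points for MET against Distal normal tissue and -3.22 and -0.923 points for MET Core against margin, and the block changed no other call.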
